A study of Mus musculus with 6 samples.

Results

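The long noncoding RNAs Meg3, Malat1, Snhg11, Rian, Miat and Sox2ot were followed across the single cells of mouse CA1. They are 6 of the 20234 genes in the deposited table and were chosen by name, with earlier results of these data known. Their ranks below are therefore a description. Together they gave 451627 UMIs, or 6.54% of all UMIs in the 973 cells analyzed. A UMI (unique molecular identifier) marks 1 captured RNA molecule. Malat1 was the second most abundant gene with 311498 UMIs (4.51%), Meg3 ranked 4 with 106966 UMIs (1.55%) and Snhg11 ranked 7 with 28870 UMIs (0.418%). Miat (1800 UMIs, rank 571), Rian (1736 UMIs, rank 599) and Sox2ot (757 UMIs, rank 1833) were far less abundant, so that the word abundant holds for the first 3 members only. Malat1 was found in all 973 cells, Meg3 in 95.4% and Snhg11 in 85.0%, against 58.3% for Miat, 56.5% for Rian and 22.2% for Sox2ot.

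Long noncoding RNAs are transcripts that are not translated into protein, and many of them stay in the nucleus. Malat1 is a nuclear RNA of nuclear speckles that nearly every cell type expresses at high level. Meg3 and Rian are made from the maternally inherited chromosome of the imprinted Dlk1-Dio3 region, and Rian hosts snoRNAs and microRNAs. Snhg11 is a host gene of small nucleolar RNAs, Miat (also called Gomafu) is a neuronal RNA of nuclear foci, and Sox2ot is the transcription unit that contains the gene of the neural stem cell factor Sox2.

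The cells came from CA1, the output field of the hippocampus, of 6 male C57Bl6 mice at postnatal day 28. Placebo mice 1, 3 and 5 and EPO mice 2, 4 and 6 had received a single injection, for the latter of 5000 IU/kg recombinant human erythropoietin (EPO), 6 h before the tissue was taken. CA1 was cut from 600 µm slices and digested with papain and DNaseI, so that living and damaged cells of any type of this tissue could enter, and RNA with a poly(A) tail was captured on barcoded beads in droplets (Drop-seq). Labels mark placebo mice 1 and 3 and EPO mouse 2 with D1 and the other mice with D2, without saying what this means.

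In this method a bead catches the 3′ end of an RNA through its poly(A) tail, and an A-rich stretch inside an RNA can be caught as well. Where the reads of the members fell was not examined, and the 3′ ends below are annotated ends. They are the last 80 bases of the GENCODE vM21 transcript that ends farthest 3′ with a poly(A) signal, in GRCm38. The capitals mark the signal AATAAA, searched for on the transcript strand together with ATTAAA in the last 60 bases, where 34.5% of 141515 annotated transcripts have 1 of them. The transcript of Meg3 ends at chr12:109571647-109571726 (+), that of Malat1 at chr19:5795690-5795769 (-) and that of Sox2ot at chr3:34677916-34677995 (+).
Meg3: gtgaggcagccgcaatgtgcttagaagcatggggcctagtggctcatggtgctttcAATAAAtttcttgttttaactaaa
Malat1: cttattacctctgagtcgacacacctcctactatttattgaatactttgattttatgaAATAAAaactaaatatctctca
Sox2ot: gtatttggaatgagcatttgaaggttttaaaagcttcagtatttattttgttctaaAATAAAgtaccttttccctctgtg
Malat1 is shown a second time because its RNA carries a run of 12 A in a row, 298 bases before the annotated end (chr19:5795968-5796019, -). The run is in capitals.
Malat1 run: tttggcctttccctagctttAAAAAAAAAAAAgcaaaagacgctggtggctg
Whether UMIs of Malat1 came from the annotated end or from this run cannot be told apart in the table. The annotation does not show whether the RNA carries a tail at that end.

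Meg3 spans chr12:109541001-109571726 (+) with up to 10 exons, and Rian (chr12:109603940-109661716, +) begins 32213 bases further and holds 17 microRNA or snoRNA genes. Malat1 (chr19:5795690-5802672, -) lies 22035 bases from Neat1, a neighboring nuclear noncoding RNA. Snhg11 is at chr2:158375638-158386145 (+) and Miat at chr5:112213228-112229395 (-). GENCODE vM21 annotates Snhg11 as protein coding. Sox2ot (chr3:34104270-34682619, +) is 578350 bases long and contains Sox2 on the same strand, so that reads of Sox2 and of a Sox2ot transcript over Sox2 cannot be told apart. Meg3 is shown with its promoter because Meg3, Rian and Mirg, a further RNA of the region, moved together in the results below. The RefSeq window of GRCm38.p6 (chr12:109540746-109541045, +, from 250 bases before to 50 after the listed start) holds the letters TGACGTCA, the full cAMP response element, 49 bases before the listed start, here in capitals.
Meg3 promoter: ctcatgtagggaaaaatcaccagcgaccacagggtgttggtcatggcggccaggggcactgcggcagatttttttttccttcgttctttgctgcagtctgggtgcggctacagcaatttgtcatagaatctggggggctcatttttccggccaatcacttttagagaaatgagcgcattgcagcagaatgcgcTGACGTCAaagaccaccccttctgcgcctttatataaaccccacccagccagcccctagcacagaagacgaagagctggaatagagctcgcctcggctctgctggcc
The same 8 letters, which read alike on both strands, were in 1.79% of 32851 promoter windows and in 1 of the 6 windows listed for 5 members. A match is a description of these letters and not a binding site.

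Before the results, some properties of the libraries have to be known. Cells per mouse ran from 43 in placebo mouse 3 to 271 in EPO mouse 4, total UMIs from 204479 to 1948490, median UMIs per cell from 4088 to 4924, and the median share of UMIs from the 27 mitochondrial genes (mt- share) between 3.58% (EPO mouse 6) and 18.3% (EPO mouse 2). There were 53 barcodes with at least 100 UMIs in both placebo mouse 1 and EPO mouse 4, with a median correlation between the copies of 0.698 and always fewer UMIs in EPO mouse 4. Of the 271 cells of EPO mouse 4, 28 were such copies. No fold change below that passed the test changed direction without these copies, and calls that were lost are given where they occur. Clustering, with the 6 members kept out of the genes used for it, gave 618 glutamatergic-like, 165 oligodendrocyte-like, 78 astrocyte-like, 55 GABAergic-like, 39 endothelial-like and 18 microglia-like cells, named by marker genes. The classes carried their markers: the 7 glutamatergic markers made up 0.424% of UMIs in glutamatergic-like cells and between 0.0154% and 0.0697% in the other classes. In the GABAergic-like cluster 9 of 55 cells held 14 to 224 UMIs of markers of mural cells, the contractile cells of vessel walls, and at most 1 UMI of GABAergic markers. A second oligodendrocyte-like cluster also expressed Gpr17 and Vcan, markers of oligodendrocyte precursor cells (OPC).

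The first question was which cells carry each RNA. Levels are shares of all UMIs of a class in a mouse, for mice with at least 5 cells of that class, and are not divided by RNA length. They are therefore compared for the same gene only. Meg3, Snhg11, Rian and Miat were RNAs of neurons, Malat1 was high everywhere, and Sox2ot was an RNA of oligodendrocyte-like cells.

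**Figure D1:**
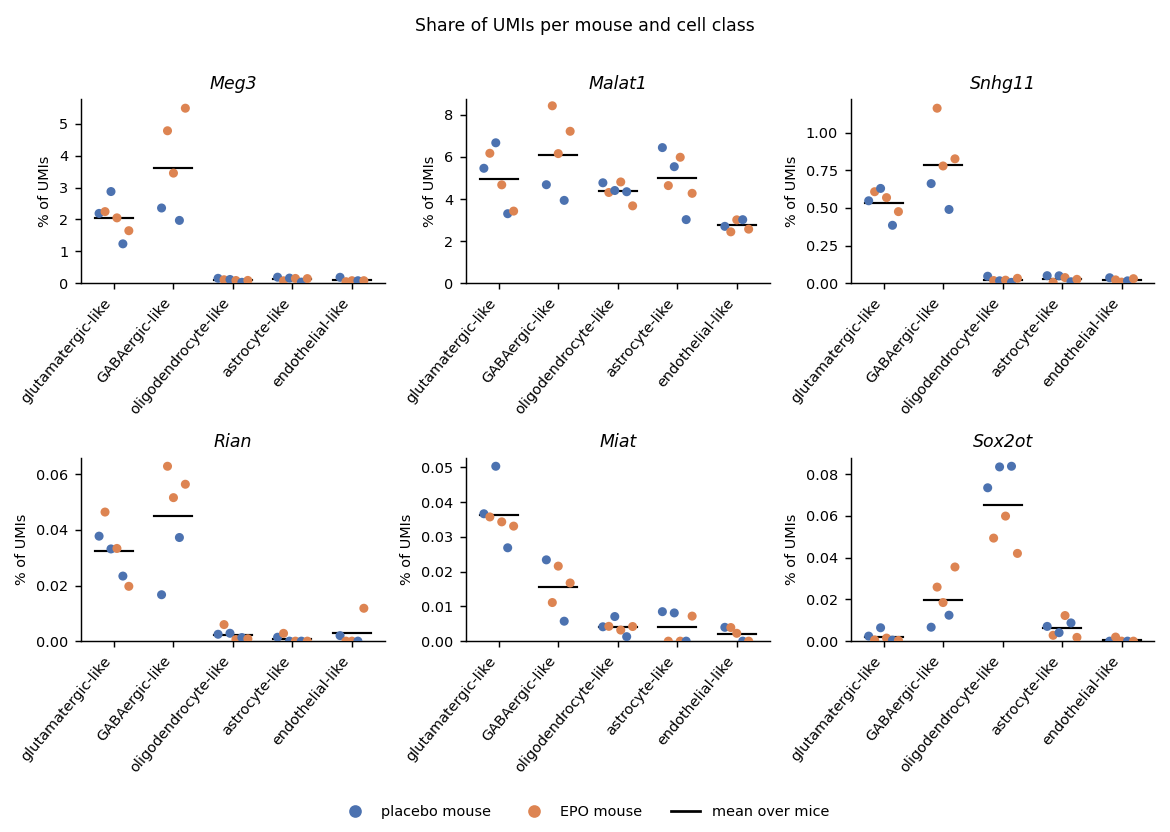
Share of UMIs (percent, y axis) of each member in 5 cell classes (x axis). Points are mice with at least 5 cells of the class, blue for placebo and orange for EPO, and lines are means over mice. Meg3, Snhg11, Rian and Miat are high in the 2 neuronal classes, and Sox2ot is highest in oligodendrocyte-like cells (0.0654% on average).

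Meg3 made up 2.19%, 2.87% and 1.23% of UMIs of glutamatergic-like cells in placebo mice 1, 3 and 5 and 2.25%, 2.05% and 1.65% in EPO mice 2, 4 and 6 (2.04% ± 0.56, SD, n = 6). In GABAergic-like cells it held 2.36% and 1.97% in placebo mice 1 and 5 and 4.78%, 3.45% and 5.49% in EPO mice 2, 4 and 6 (3.61% ± 1.52, n = 5). Every mouse had the higher share in GABAergic-like cells, while the ranges of the 2 classes over mice overlapped. The share was 0.0942% ± 0.0416 in oligodendrocyte-like cells, 0.123% ± 0.060 in astrocyte-like cells (both n = 6) and 0.0914% ± 0.0529 in endothelial-like cells (n = 5), and these 3 ranges overlapped. They lay below the lowest neuronal value in every mouse. Of the microglia-like cells, only placebo mouse 1 and EPO mouse 2 had enough, with shares of Meg3 between 0.0607% and 0.884%.

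Droplets contain free RNA from broken cells, which gives UMIs in cells that do not express a gene. In oligodendrocyte-like cells Meg3 stood at a median of 4.38% of its glutamatergic-like level (2.09% to 6.89%), and the 7 glutamatergic markers together at 3.41% (1.59% to 7.75%). In astrocyte-like cells the medians were 6.35% for Meg3 and 8.002% for the markers, and in endothelial-like cells 4.67% and 3.70%. The ranges overlapped in each of these classes, and free RNA and a low expression of Meg3 in these cells were not told apart by a test. At least 1 UMI of Meg3 was found in 81.8% of oligodendrocyte-like cells (median 4580 UMIs) and in 100% of glutamatergic-like cells (median 5240 UMIs). Snhg11 was at a similar level, at 3.13% of its glutamatergic-like level in oligodendrocyte-like cells. Miat stood at 11.6%, with a range of 4.803% to 14.1%. Of its 37 UMIs in oligodendrocyte-like cells, 16 came from 36 cells that were OPC-like at a lower clustering resolution. Without these cells its mean share was 0.00203%, against 0.00402% with them.

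In the fit over all genes (edgeR quasi-likelihood test, mouse as a term, Benjamini-Hochberg adjusted p under 0.05), 5 of 6 members differed between oligodendrocyte-like and glutamatergic-like cells, where 63.4% of all 5058 genes tested did (29.4% higher, 33.9% lower). Meg3 was 19.8-fold lower (log2 fold change -4.31 ± 0.27 SE, adjusted p = 1.13e-17) and Snhg11 21.2-fold lower (-4.40 ± 0.27, adjusted p = 4.53e-18). Rian was 14.3-fold and Miat 7.90-fold lower. Sox2ot was 61.7-fold higher (5.95 ± 0.26, adjusted p = 5.13e-23). Malat1 did not pass (0.08 ± 0.27, adjusted p = 0.809), and its fold change turned to -0.16 with total UMIs, which moved the median of all genes by -0.26. Relative to that median it was 0.17 to 0.20 under each scaling.

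Against astrocyte-like cells 4 of 5 members tested were lower than in glutamatergic-like cells, where 57.8% of 1560 genes differed (24.3% higher, 33.5% lower). Meg3 fell by 3.67 ± 0.29, Snhg11 by 3.79 ± 0.31 and Miat by 2.62 ± 0.43 on the log2 scale. Rian, also called, left 2 UMIs in all astrocyte-like cells (0.000691%, exact 95% interval 8.37e-05% to 0.0025%), and its fold change is not given. Malat1 missed the threshold (0.51 ± 0.25, adjusted p = 0.0797, between 0.00395 and 0.942 over the alternatives), and Sox2ot did not pass the filter on low counts. In endothelial-like cells all 5 members tested were lower, where 48.7% of 6111 genes differed (15.7% higher, 33.0% lower). Log2 fold changes were -4.76 ± 0.37 for Meg3, -4.95 ± 0.39 for Snhg11 and -3.92 ± 0.50 for Miat, which left 5 UMIs, and Rian left 3 UMIs (0.00159%, exact 95% interval 0.000328% to 0.00465%). Malat1 was 2.01-fold lower (-1.004 ± 0.32, adjusted p = 0.00403), a call that was lost without EPO mouse 4 (-0.95, adjusted p = 0.0922) and with total UMIs as library size (-0.67, adjusted p = 0.0656), with a range of 9.29e-13 to 0.0922 over the alternatives. The median of all genes was -0.56 in this comparison, and relative to it Malat1 was at -0.44.

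Between the 2 neuronal classes 3 of 6 members differed, where 12.8% of 6284 genes did (4.93% higher, 7.85% lower). Meg3 was 1.95-fold higher in GABAergic-like cells (0.96 ± 0.24, adjusted p = 0.00114), higher in 5 of 5 mice. Miat was 2.05-fold lower (-1.04 ± 0.34, adjusted p = 0.0235), lower in 5 of 5 mice, with 0.0362% ± 0.00775 of UMIs in glutamatergic-like and 0.0157% ± 0.00733 in GABAergic-like cells. Sox2ot was 21.7-fold higher (4.44 ± 0.43, adjusted p = 2.59e-22), higher in 5 of 5 mice. The mean share was 0.0198% in GABAergic-like and 0.00105% in glutamatergic-like cells of these mice. The latter was 0.00195% with placebo mouse 3, which had 6 UMIs in 16 cells and was not in this fit. Snhg11 (0.66 ± 0.25, adjusted p = 0.064), Rian (0.65 ± 0.30) and Malat1 (0.48 ± 0.23) did not pass. Without placebo mouse 1, the only mouse with less Rian in GABAergic-like cells, Rian passed (0.91, adjusted p = 0.0274, 0.0274 to 0.844 over the alternatives).

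The GABAergic calls have limits. Without the 9 cells with mural markers Meg3 was at 4.09% ± 1.57 and still higher (1.11 ± 0.23, adjusted p = 5.08e-05) and Sox2ot too (4.54 ± 0.43), Snhg11 passed (0.79 ± 0.25, adjusted p = 0.0169, 0.0108 to 0.602 over the alternatives) and Miat no longer did (-0.96 ± 0.36, adjusted p = 0.0642). Without both copies of the shared barcodes Meg3 (0.90, adjusted p = 0.0854) and Miat (-0.87, adjusted p = 0.0801) both lost the call. Miat also lost it without placebo mouse 5 (adjusted p = 0.218) and without EPO mouse 6 (adjusted p = 0.0556), and Meg3 and Miat lost it with limma (adjusted p = 0.112 and 0.0711). Over all alternatives the adjusted p was 5.08e-05 to 0.112 for Meg3 and 0.00346 to 0.218 for Miat. GABAergic-like cells also had a higher median mt- share, 16.2% against 9.12%, and its part in these differences was not tested. Meg3, Malat1, Snhg11, Rian and Sox2ot were higher there in every EPO mouse than in placebo mice 1 and 5, while Miat overlapped. Malat1 held 4.68% and 3.93% in these placebo mice and 8.43%, 6.16% and 7.22% in EPO mice 2, 4 and 6. Each mouse had 5 to 16 such cells. How many other genes did so was not counted. The Meg3 fold change differed by 0.86 between treatments (interaction in edgeR, unadjusted p = 0.0666), and no gene passed.

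Malat1 was high in every class. It made up 5.46%, 6.67% and 3.30% of UMIs of glutamatergic-like cells in placebo mice 1, 3 and 5 and 6.17%, 4.67% and 3.43% in EPO mice 2, 4 and 6 (4.95% ± 1.40). The order from high to low was GABAergic-like (6.09% ± 1.83), astrocyte-like (4.98% ± 1.26), glutamatergic-like, oligodendrocyte-like (4.39% ± 0.41) and endothelial-like cells (2.75% ± 0.26). Neighbors in this order overlapped over mice except the last, as the highest endothelial-like value (3.02%) lay below the lowest oligodendrocyte-like value (3.67%). In oligodendrocyte-like cells the spread over mice was small, 3.67% to 4.81%, and in glutamatergic-like cells it was wide, 3.30% to 6.67%. Oligodendrocyte-like cells had more Malat1 than glutamatergic-like cells in 3 of 6 mice.

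Sox2ot followed another pattern. In oligodendrocyte-like cells it held 0.0735%, 0.0835% and 0.0838% of UMIs in placebo mice 1, 3 and 5 and 0.0494%, 0.0599% and 0.0421% in EPO mice 2, 4 and 6. All 6 values lay above those of every other class with at least 4 mice. GABAergic-like cells came next (0.0198% ± 0.0113), then astrocyte-like (0.00612% ± 0.00399) and glutamatergic-like cells (0.00195% ± 0.00233), and each of these neighbors overlapped over mice. After thinning every cell to 1500 UMIs, 50.5% of oligodendrocyte-like, 22.5% of GABAergic-like, 8.70% of astrocyte-like and 1.85% of glutamatergic-like cells held a UMI of Sox2ot (77.6%, 47.3%, 19.2% and 7.44% without thinning). In endothelial-like cells (median 2810 UMIs) the share was 2.56%, or 0.395% after thinning, from 1 UMI, and in 18 microglia-like cells no UMI was found, which allows a share of up to 0.00581% of UMIs. At a lower clustering resolution 36 cells formed an OPC-like class, and Sox2ot was between 0 and 0.0878% there in the 3 mice with enough cells.

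Sox2, the gene inside Sox2ot, had a different order. It gave 854 UMIs per 1000000 in astrocyte-like and 507 in OPC-like cells, against 102 in GABAergic-like, 85.4 in oligodendrocyte-like and 3.95 in glutamatergic-like cells, pooled over mice. Against glutamatergic-like cells it was higher in astrocyte-like cells by 8.15 ± 0.35 and in oligodendrocyte-like cells by 4.61 ± 0.40 on the log2 scale (adjusted p = 8.62e-26 and 2.27e-13). The class with the most Sox2 per UMI was thus not the class with the most Sox2ot. Neat1, next to Malat1, was also uneven, 3.70 ± 0.40 higher in oligodendrocyte-like and 3.85 ± 0.61 higher in endothelial-like than in glutamatergic-like cells on the log2 scale.

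Mirg, the RNA gene 68047 bases beyond Rian, went with Meg3: it was higher in GABAergic-like than in glutamatergic-like cells (1.70 ± 0.37, adjusted p = 0.000101) and gave 1 UMI in all oligodendrocyte-like and 0 in astrocyte-like cells, which allows up to 0.00104% of UMIs there. Of a list of 29 other long noncoding RNAs, 6 could be tested in GABAergic-like cells, where 2 were higher, Mirg and Dlx6os1 (9.69 ± 0.49), a noncoding RNA of the Dlx6 locus, an interneuron gene, and 4 did not pass. Their median log2 fold change was 0.72, against -0.12 over all genes. In oligodendrocyte-like cells 3 were tested, of which Neat1 and Gas5 (1.25 ± 0.17) were higher and C130071C03Rik lower (-2.01 ± 0.41). In astrocyte-like cells Gas5 alone was tested and did not pass (0.52 ± 0.33), and in endothelial-like cells 1 of 6 was higher and 3 were lower. The genes Dlk1, Rtl1 and Dio3 of the imprinted region, which are active on the paternal chromosome, gave 62, 32 and 29 UMIs in all glutamatergic-like cells, and 38 of the 62 UMIs of Dlk1 came from 1 cell of the cluster led by Tshz3 and Tshz2.

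The next question was how the members vary among neurons. The glutamatergic-like cells formed 6 clusters, and the clusters differed in the members, in depth and in mt- share at once. In 3 of them the mt- share was low and in 3 it was high. The cluster led by Hpca, a calcium sensor of hippocampal pyramidal cells, and Spink8, a CA1 marker, had 157 cells with a median of 10878 UMIs and 3.75% mt- share. The clusters led by Nts and Slc17a6 (22 cells, 4.51%) and by Mef2c and Ncald (64 cells, 5.16%) also had a low mt- share, with medians of 24835.5 and 7529 UMIs. The clusters led by Cpne7 and Grin2b (150 cells, 10.9%), by Tshz3 and Tshz2 (89 cells, 20.2%) and by Gm10115, Meg3 and mitochondrial genes (136 cells, 20.5%) had medians of 3645 to 4193 UMIs. Meg3 was among the 10 leading genes of the last 2, although it was not used for clustering.

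**Figure D2:**
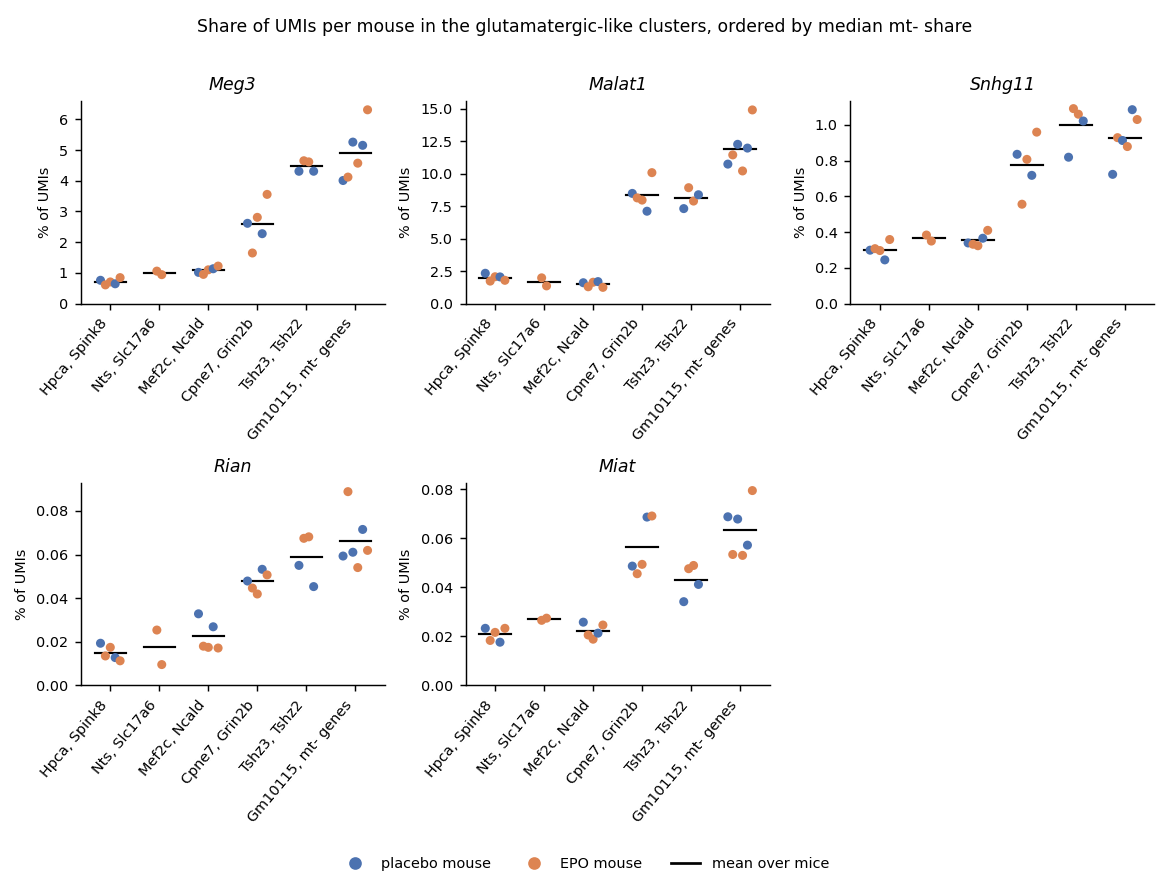
Share of UMIs (percent, y axis) of 5 members in the 6 glutamatergic-like clusters (x axis, named by leading genes and ordered by median mt- share). Points are mice with at least 5 cells, blue for placebo and orange for EPO, and lines are means. All 5 members have lower means in the 3 clusters on the left, which have median mt- shares of at most 5.16%, than in the 3 on the right.

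Meg3 held 0.710% ± 0.094 of UMIs in the cluster led by Hpca (n = 5 mice), 0.94% and 1.06% in the 2 mice of the cluster led by Nts, and 1.08% ± 0.10 in that led by Mef2c (n = 5). It held 2.58% ± 0.70 in the cluster led by Cpne7 (n = 5), 4.47% ± 0.19 in that led by Tshz3 (n = 4) and 4.90% ± 0.86 in that led by Gm10115 (n = 6). The lowest value of the latter 3 clusters, 1.65%, was above the highest of the former 3, 1.22%. Malat1 separated in the same way, with 1.99% ± 0.24, 1.36% and 1.98%, and 1.49% ± 0.21 in the former and 8.36% ± 1.09, 8.13% ± 0.69 and 11.9% ± 1.7 in the latter. The order of the latter 3 was not the same for the 2 RNAs. Malat1 was alike in the clusters led by Cpne7 and Tshz3, whose ranges overlapped, while Meg3 was higher in that led by Tshz3, at 4.31% to 4.65% against 1.65% to 3.56%.

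Snhg11, Rian and Miat were also low in the former clusters, with cluster means of at most 0.367%, 0.0225% and 0.0270%, and high in the latter, with means of at least 0.775%, 0.0477% and 0.0430%. Sox2ot was near the limit of detection in all 6 clusters, between 0 and 0.017% in any mouse.

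Markers named the cluster led by Tshz3 and Tshz2 after deep cortical layers, but none of these markers was among its 10 leading genes, which include the hemoglobin gene Hbb-bs, so it is called by its leading genes here. All 5 members tested were higher there than in the other glutamatergic-like cells of the same 4 mice, where 29.0% of 5970 genes differed (11.5% higher, 17.5% lower). Meg3 was 3.15-fold higher (1.65 ± 0.13, adjusted p = 1.03e-32), Snhg11 2.39-fold, Rian 2.19-fold, Malat1 2.07-fold (each higher in 4 of 4 mice) and Miat 1.54-fold (0.62 ± 0.20, adjusted p = 0.00925, higher in 3 of 4 mice). The call of Miat was lost without EPO mouse 2 (adjusted p = 0.0716) and without EPO mouse 4 (adjusted p = 0.189), and over all alternatives its adjusted p was 9.82e-14 to 0.531. The clusters were drawn on the same cells, with mitochondrial genes among those used, so these p-values describe clusters and are no independent test. The median mt- share was 20.2% in this cluster against 9.12% over all glutamatergic-like cells, and its part in the difference was not tested.

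The 4 clusters whose markers pointed to CA1 pyramidal neurons, as 1 group, passed the test against the other 2 in none of the 5 members tested, where 9.09% of 6907 genes differed (4.92% higher, 4.17% lower). Of these 4 clusters only that led by Hpca had a CA1 marker among its 10 leading genes, and that led by Mef2c had Tshz2 among them, so the group rests on mean marker levels. Both sides joined clusters of low and high shares: those led by Hpca, Mef2c, Cpne7 and Gm10115 against those led by Nts and Tshz3. The lack of a call thus does not show that CA1-named cells are alike or equal to the others. Meg3 came nearest (-0.55 ± 0.19, adjusted p = 0.0766, 3.85e-05 to 0.334 over the alternatives). The count depended on the clustering and on 1 mouse: 4 members were lower with mt- genes kept out of the variable genes (Meg3 -1.20, adjusted p = 3.85e-05), 2 without integration, and Meg3 (-0.80, adjusted p = 0.000406) and Snhg11 (-0.55, adjusted p = 0.0127) without EPO mouse 6. Without EPO mouse 4 the genes called went from 628 to 264. In EPO mouse 6 the other side was 6 cells of the cluster led by Nts and 3 of that led by Tshz3. Meg3 was 1.71% in its CA1-named cells and 1.25% in the others, the only 1 of 5 mice with this order. Of the list of other long noncoding RNAs 8 were tested here and Rmst alone differed (-2.49 ± 0.47). Rmst was also the most changed of 7 tested in the cluster led by Tshz3 (4.04 ± 0.44), of which it is a leading gene, where Mirg (1.74 ± 0.34) and C130071C03Rik (1.07 ± 0.37) were higher as well and the other 4 did not pass.

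Since the clusters differed in mt- share and depth, both were examined within each mouse, over the cells of all 6 clusters together. The groups of cells compared can therefore differ in cluster as well, and these splits do not separate mt- share or depth from cluster. A high mt- share is commonly taken as a sign of damaged cells. The glutamatergic-like cells of each mouse were split at the mouse's own median mt- share into a low and a high group, and shares were taken of UMIs outside mitochondrial genes. The high groups had median mt- shares of 6.16% to 26.1% and 3493 to 4096 UMIs per cell, the low groups 1.66% to 13.9% and 6223 to 14915 UMIs per cell.

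**Figure D3:**
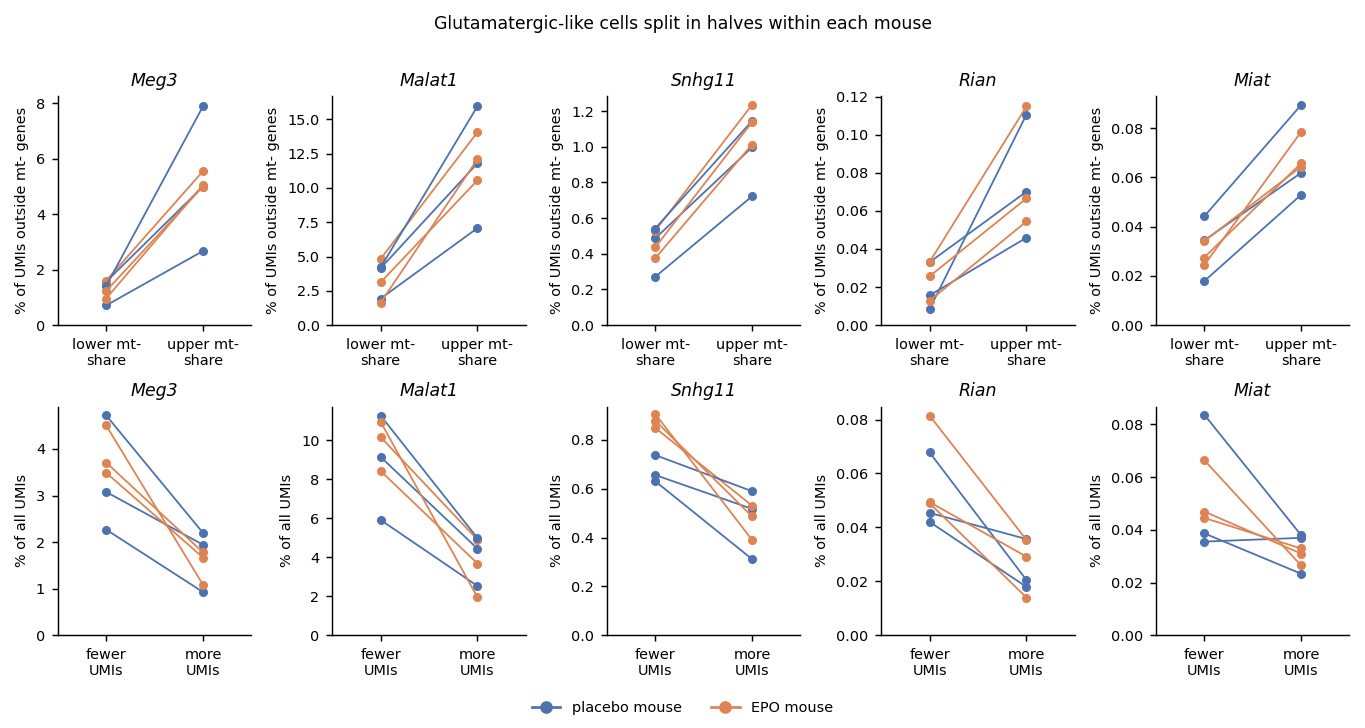
Shares of UMIs (percent, y axis) of 5 members in glutamatergic-like cells split at the mouse's own median mt- share (top, UMIs outside mt- genes) or median UMI total (bottom, all UMIs). Lines join the 2 groups of 1 mouse, blue for placebo and orange for EPO. All lines rise in the top row, and all but 1 line of Miat fall in the bottom row.

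Meg3 rose from 1.56%, 1.41% and 0.710% to 4.99%, 7.88% and 2.67% in placebo mice 1, 3 and 5, and from 1.60%, 1.23% and 0.957% to 5.55%, 4.99% and 5.05% in EPO mice 2, 4 and 6. The groups did not overlap, as the lowest high value was above the highest low one. Malat1 rose from 3.31% ± 1.31 to 11.9% ± 3.0, and the ratio of its shares was between 2.85 and 7.36 in the 6 mice. For Snhg11 the ratio was 2.05 to 2.71, for Rian 2.12 to 13.0 and for Miat 1.80 to 3.22. In each of these 5 members the share was higher in the high group in 6 of 6 mice.

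All 5 members tested passed, where 51.5% of 5693 genes did (25.2% higher, 26.3% lower). The log2 fold change was 2.23 ± 0.21 for Meg3 (adjusted p = 3.97e-16), 2.09 ± 0.23 for Malat1 (adjusted p = 6.35e-13), 1.88 ± 0.17 for Rian (adjusted p = 3.65e-17), 1.45 ± 0.18 for Snhg11 and 1.44 ± 0.16 for Miat. Meg3 ranked 13 and Malat1 15 among all genes by fold change. Splits made separately among deeper and shallower cells kept all 5 calls. Sox2ot, with at most 10 UMIs in any group of cells, did not pass the filter.

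A share can rise because other RNAs fall, so UMIs per cell were also taken. Meg3 gave 184 ± 38 UMIs per cell in the high groups and 127 ± 35 in the low groups, and Malat1 426 ± 56 and 325 ± 87, both higher in 6 of 6 mice although the high groups had fewer UMIs per cell. Snhg11 gave 37.7 ± 5.1 against 45.2 ± 11.95 UMIs per cell and Miat 2.49 ± 0.34 against 3.08 ± 0.77, and both were higher in the high group in only 1 of 6 mice. Rian was higher in 3 of 6 mice. Meg3 and Malat1 thus were more numerous per cell in cells with a high mt- share, and Snhg11 and Miat were higher only relative to other RNAs. This difference between members was not tested.

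Along fixed ranges of mt- share Meg3 and Malat1 had higher means in each range in turn. Neighboring ranges overlapped over mice, except those of Malat1 up to 5% and from 5% to 10%. Meg3 held 0.862% ± 0.209 of UMIs outside mitochondrial genes up to 5% mt- share (4 mice), 2.10% ± 2.06 from 5% to 10% (5 mice), 5.05% ± 2.02 from 10% to 20% (6 mice) and 6.02% ± 0.94 from 20% to 40% (5 mice). Malat1 held 1.93% ± 0.28, 5.42% ± 5.04, 12.4% ± 3.0 and 12.8% ± 1.2. In the range from 5% to 10% EPO mouse 6 stood apart at 5.78% of Meg3 and 14.4% of Malat1, while the other 4 mice had 0.951% to 1.49% and 2.47% to 4.01%. Across single cells of a mouse, the Spearman correlation of the Meg3 share with the mt- share was between 0.571 and 0.836, and that of Malat1 between 0.518 and 0.802, in 16 to 166 cells that share library and depth range. For Miat it was 0.114 to 0.575.

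In oligodendrocyte-like cells the same split called only 7 genes and no member. With so few calls over all genes, the lack of a call does not set the members apart. Malat1 differed by 0.29 and Meg3 by 1.03 on the log2 scale (adjusted p = 0.104 for both). Whether the relation differs between the classes was not tested.

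The list of other long noncoding RNAs had 5 genes in this fit, of which Mirg (1.98 ± 0.24), C130071C03Rik (1.64 ± 0.23) and Ftx (1.39 ± 0.27), an RNA of the X-inactivation center, were higher and the other 2 did not pass. Among all genes that GENCODE lists as noncoding, other than the members, 44 were tested, of which 25 were higher and 4 lower, with a median log2 fold change of 0.90 against 0.01 over all genes. This second list was chosen after its values were seen.

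Depth was split in the same way, at each mouse's median UMI total, into cells with 2983 to 3590 and cells with 7338 to 15234 UMIs at the median. All 5 members tested made up a lower share in the deeper cells, where 39.3% of 4613 genes differed (20.4% higher, 18.9% lower). Malat1 was 3.09-fold lower (-1.63 ± 0.25, adjusted p = 7.24e-07), from 9.32% ± 1.98 to 3.75% ± 1.27. Meg3 was 2.78-fold (-1.47 ± 0.22, adjusted p = 3.49e-07), Rian 2.64-fold, Snhg11 2.03-fold and Miat 1.95-fold lower. Shares fell in 6 of 6 mice for each except Miat, which fell in 5 of 6. Per cell, the deeper cells held more UMIs: Meg3 190 ± 44 against 122 ± 29, in 6 of 6 mice, and Malat1 437 ± 96 against 313 ± 62, in 5 of 6. Since the split itself selects cells with more UMIs, such a rise is largely built in.

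Depth and mt- share were related themselves, with Spearman correlations of -0.658 to -0.391 across cells of a mouse. When depth was split separately among cells of high and low mt- share, 4 of the 5 depth calls held with smaller fold changes, -0.80 for Meg3, -1.05 for Malat1, -0.57 for Snhg11 and -0.71 for Rian, and that of Miat was lost (-0.42, adjusted p = 0.0827). Of the other long noncoding RNAs 4 were tested by depth, of which Ftx (-1.39 ± 0.27), Mirg (-1.28 ± 0.27) and C130071C03Rik (-0.98 ± 0.24) were lower and Gas5 (-0.06 ± 0.19) did not pass. Of the 25 other noncoding genes tested 15 were lower and 1 higher.

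Barcodes outside the filter held more Malat1. Its share of UMIs outside mitochondrial genes was 5.26% ± 1.298 in the 973 cells kept, 9.86% ± 0.59 in 3019 barcodes with at most 1000 genes (median 312 UMIs) and 8.98% ± 1.96 in 2005 barcodes with more than 40% mt- UMIs (median 186 UMIs). The ranges of the first 2 sets did not overlap over mice. Meg3 held 1.71% ± 0.30, 2.34% ± 0.49 and 2.32% ± 0.46. Snhg11 was at 0.446% ± 0.085, 0.401% ± 0.087 and 0.496% ± 0.063, and these ranges overlapped.

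**Figure D4:**
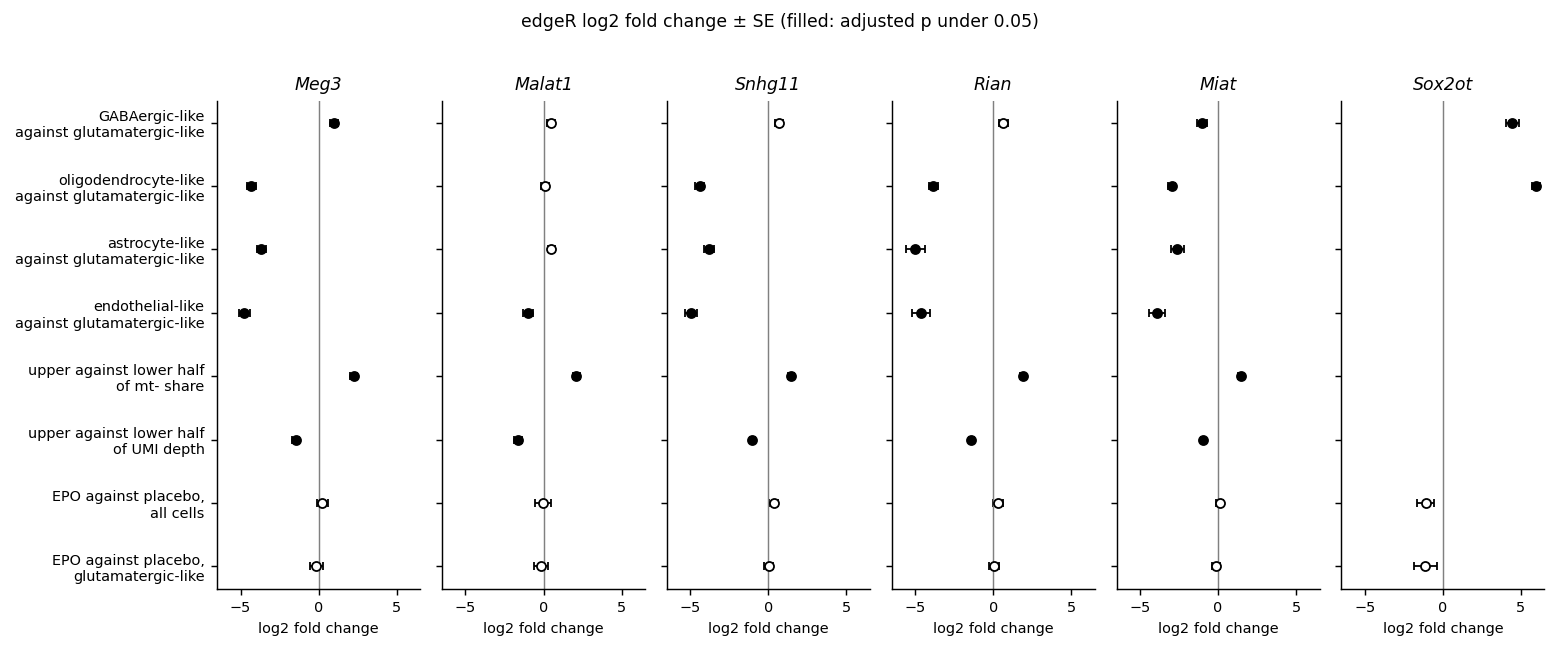
Log2 fold change (x axis) with its SE (bars) of each member in 8 comparisons (y axis), from the fit over all genes. Filled points have an adjusted p under 0.05, and a missing point did not pass the filter on low counts. Meg3, Snhg11, Rian and Miat lie left of 0 in the 3 classes that are not neurons and right of 0 in the cells with high mt- share, and no EPO comparison has a filled point.

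The last question was whether a single injection of EPO changed these RNAs within 6 h. No member passed in any of 3 cell sets, and no gene at all did (0.0% of 10043 genes in all cells, 0.0% of 8521 in glutamatergic-like and 0.0% of 2147 in oligodendrocyte-like cells, edgeR). At an unadjusted p under 0.05 there were 127, 158 and 32 genes, DESeq2 called 1, 0 and 0 genes, and limma none.

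**Figure D5:**
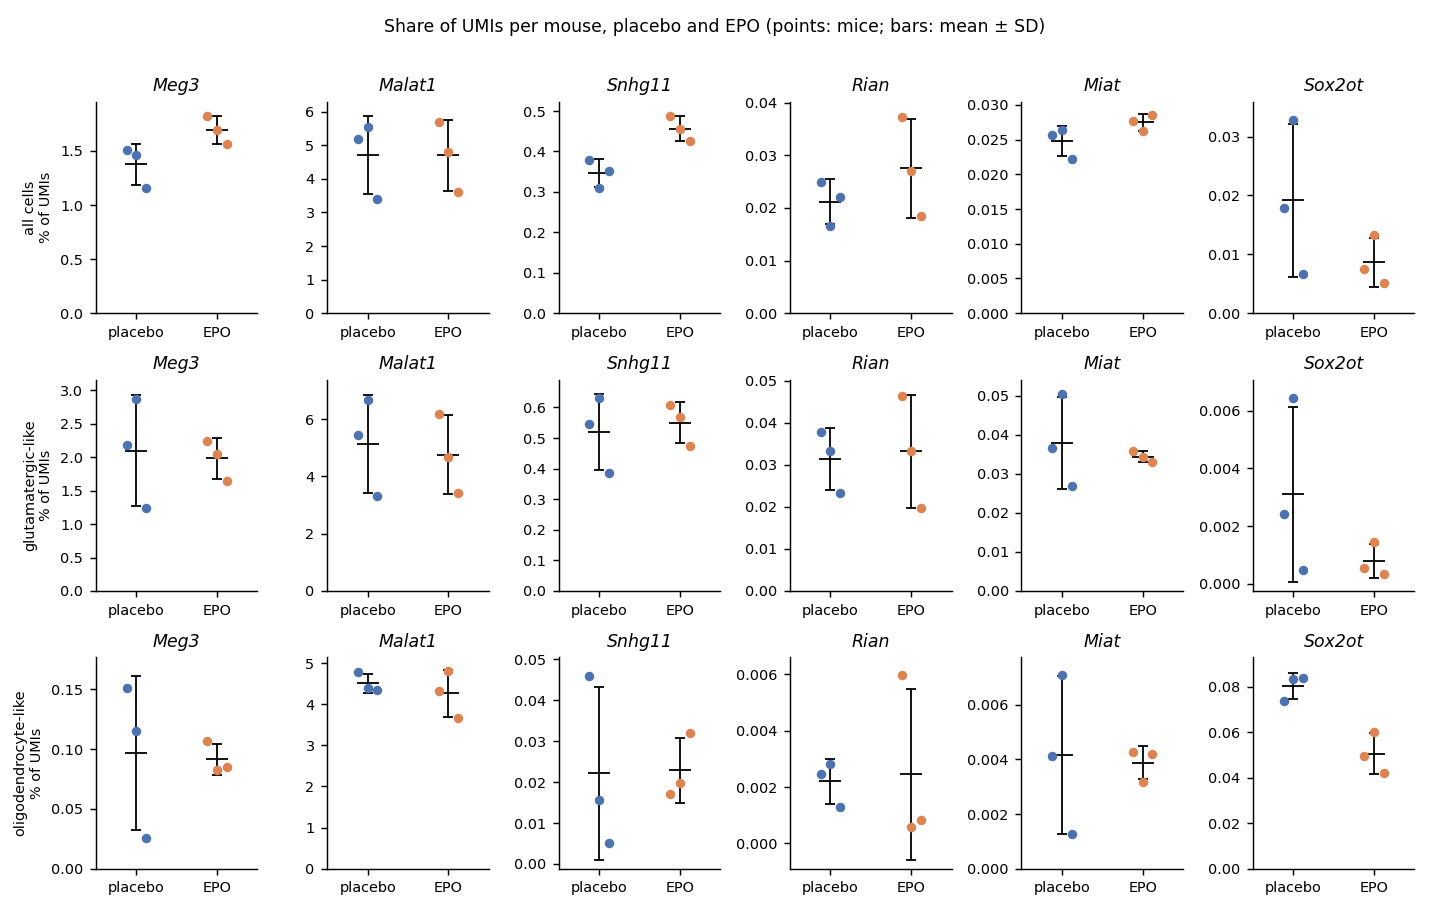
Share of UMIs (percent, y axis) of each member in placebo and EPO mice (x axis), in all cells (top), glutamatergic-like cells (middle) and oligodendrocyte-like cells (bottom). Points are mice and bars are means ± SD of 3 mice. Meg3 and Snhg11 in all cells and Sox2ot in oligodendrocyte-like cells do not overlap between treatments.

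In all cells together Meg3 held 1.51%, 1.47% and 1.16% of UMIs in placebo mice 1, 3 and 5 and 1.83%, 1.69% and 1.56% in EPO mice 2, 4 and 6. Snhg11 held 0.379%, 0.310% and 0.351% in placebo and 0.489%, 0.456% and 0.425% in EPO mice. Every EPO mouse was above every placebo mouse for these 2 RNAs, as for 3.88% of all genes tested. The exact two-sided permutation test gave p = 0.1 for both, the smallest value that 3 against 3 mice can give. The log2 fold changes were 0.24 ± 0.38 for Meg3 and 0.35 ± 0.29 for Snhg11 (adjusted p = 1 for both after rounding). The other 4 members overlapped between treatments.

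Sums over all cells move with the makeup of the sample, so fewer cells of a type and less RNA per cell cannot be told apart there. Glutamatergic-like cells were 90 of 163, 16 of 43 and 137 of 184 cells in placebo mice and 102 of 148, 166 of 271 and 107 of 164 cells in EPO mice. Within glutamatergic-like cells both RNAs overlapped between treatments: Meg3 held 2.10% ± 0.82 in placebo and 1.98% ± 0.31 in EPO mice (exact permutation test, two-sided, p = 0.9), and Snhg11 0.520% ± 0.125 and 0.550% ± 0.068 (p = 0.8, same exact test). In these cells 4.53% of genes were higher in every EPO mouse and 2.0% lower in every one, and none of the members was among them. Malat1 held 5.15% ± 1.71 in placebo and 4.76% ± 1.38 in EPO mice there (p = 0.8, same exact test). The fold changes of Meg3, Malat1, Rian, Snhg11 and Miat in these cells were all within 0.16 of 0 on the log2 scale with SEs of 0.24 to 0.45, and their signs changed with single mice left out. Sox2ot had the largest fold change of the members there, -1.13 ± 0.75 (adjusted p = 1 after rounding), from 4 to 20 UMIs per mouse, and -1.12 ± 0.55 in all cells. With single mice left out it was -2.17 to -0.61 and -1.60 to -0.54.

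Among mice with the same D number, Meg3 in all cells was 1.49% in placebo and 1.83% in EPO mice for D1, and 1.16% and 1.63% for D2. Snhg11 was 0.344% and 0.489% for D1, and 0.351% and 0.441% for D2. Each D number holds 1 or 2 mice of a treatment.

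In oligodendrocyte-like cells Sox2ot, listed above by mouse, was 0.0803% ± 0.0059 in placebo and 0.0505% ± 0.0090 in EPO mice. Every EPO mouse was below every placebo mouse, as for 2.47% of genes tested, with an exact two-sided permutation p = 0.1. The edgeR log2 fold change was -0.68 ± 0.25 with an unadjusted p = 0.0149 and an adjusted p = 0.999, so that it failed the correction over all genes, and with single mice left out it ranged from -0.88 to -0.52. In these cells 5.03% of genes were higher in every EPO mouse. The class held 7, 2 and 2 OPC-like cells of 32, 14 and 19 in placebo mice 1, 3 and 5, and 4, 13 and 8 of 18, 62 and 20 in EPO mice 2, 4 and 6. Without them Sox2ot held 0.0720%, 0.0899% and 0.0891% in placebo and 0.0531%, 0.0683% and 0.0391% in EPO mice, again with no overlap (exact permutation test, two-sided, p = 0.1), and the fold change was -0.62 ± 0.27 (edgeR, adjusted p = 0.999, 0.716 to 1 over the alternatives). The groups did not overlap without the copies of shared barcodes either (0.0496% in EPO mice). Malat1, Meg3 and Snhg11, the other 3 members tested in these cells, overlapped between treatments. In the comparisons within mice above, no member passed the test of a difference between treatments in its fold change (interaction in edgeR, smallest adjusted p = 0.839). Of the other long noncoding RNAs, 13, 11 and 1 were tested in the 3 cell sets and none passed. Sox2, the gene inside Sox2ot, was tested in all cells and did not pass either (-1.08 ± 0.36, edgeR, unadjusted p = 0.0124). Like other sums over all cells, this value moves with the makeup of the sample.

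Finally, the genes whose levels went most closely with each member were taken over 56 sums of a mouse and a cluster, among 3920 genes with a mean of at least 50 UMIs per 1000000. These correlations of log2 values describe sums that share libraries and cell classes, and carry no test. Meg3 went with Snhg11 (r = 0.925), A230006K03Rik (0.916) and Mirg (0.901). Snhg11 went with Meg3, Map1b (0.889), a protein of neuronal microtubules, and Cplx2 (0.889), a presynaptic protein. Rian went with Mirg (0.866), Meg3 (0.859) and Scn1a (0.858), a sodium channel. Miat went with Sipa1l1 (0.883), Add2 (0.875) and Ryr2 (0.858), a calcium release channel. Sox2ot went with the oligodendrocyte genes Cryab (0.815), Olig1 (0.758) and Tspan2 (0.758). Malat1 went with mt-Rnr1 (0.787) and mt-Nd2 (0.784), both mitochondrial, and Sfrs18 (0.773). The closest gene of Malat1 was thus a mitochondrial RNA, and those of Meg3, Rian and Snhg11 included other members.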

How the data were processed

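UMI counts per gene and cell barcode were deposited by the authors, without normalization, with 1000 barcodes for each of 6 mice. The submitters' processing notes name bcl2fastq 2.15, STAR 2.4.0 and mm10. The counter and annotation are not given in the sources used here. Missing values were set to 0. Cells were barcodes with 1001 to 8000 detected genes whose UMIs came to no more than 40% from the 27 mt- genes (390 placebo and 583 EPO cells), after the study's methods.

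Cells were clustered in Seurat 5.3.0 (R 4.3.3) with 1000 variable genes per treatment by dispersion, the 6 members left out, anchor integration of treatments, 20 dimensions and resolution 1. Clusters were named by the highest mean of fixed marker lists, with at least 3 markers seen in 10% of cells. Scrublet called 65.1% of cells of placebo mouse 3, which is not usable, and at most 4.27% elsewhere. Called cells were kept. Counts were summed per mouse and cell set and tested in edgeR 4.0.16 (TMM scaling, filterByExpr, quasi-likelihood test, mouse as a term within mice, Benjamini-Hochberg over all genes at 5%), with mice of at least 5 cells on each side. Fits by mt- share left mt- genes out. DESeq2 1.42.0, limma 3.58.1, other scalings, filters, clusterings and single mice left out were alternatives. Added after seeing the data were 4 of them: removing the copies of shared barcodes in EPO mouse 4 or in both mice, removing cells with mural markers, and removing OPC-like cells from oligodendrocyte-like cells. The procedure was tested on simulated counts. SE is the fold change divided by the square root of F. Shares were compared by exact two-sided permutation tests of 3 mice against 3. Intervals are exact binomial (95%) and, like the limits of counts, cover counting error only. Total UMIs of 204479 to 1948490 per mouse set the precision. Sequences come from GENCODE vM21 (GRCm38) and RefSeq (GRCm38.p6), matched by symbol. 5 of 6 members matched a promoter entry. Genes named are the 6 members, up to 4 genes per comparison from lists of other long noncoding RNAs and of locus neighbors, and the 3 genes closest to each member. Members and lists were chosen with earlier results of these data known.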

Additional observations from a re-analysis of the deposited data

Results flagged for a closer look

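Of 41 sets of values over 4 to 6 mice, 3 had a mouse that stood apart from the others by Dixon's test at 95%, where chance gives about 1 in 20. The log2 ratio of the Malat1 share between cells of high and low mt- share was 2.88 in EPO mouse 6. The log2 ratio of Malat1 between deeper and shallower cells was -2.49 in the same mouse, which also had the largest difference in depth between its groups of cells. The log2 ratio of Sox2ot between cells of high and low mt- share was 3.65 in placebo mouse 3, from 5 and 1 UMIs in groups of 8 cells.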

How the results depend on the processing

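No paired analysis was possible because placebo and EPO mice share no replicate number. This holds for the treatments. Comparisons within mice had the mouse as a term, and a block by D number was also tried. Of 32 fold changes that passed, 590 of 613 alternative values kept direction and call, 23 lost the call and none turned. Outside tests, 444 of 450 alternative class levels and 245 of 246 treatment differences moved by less than 1 SD.

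Scaling moved the median of all genes by up to 0.52 (astrocyte-like cells, total UMIs, -0.69 against -0.17). Relative to that median Malat1 lay at 0.17 to 0.20 in oligodendrocyte-like cells, which is less than its SE in the main fit. In astrocyte-like cells it lay at 0.68 to 0.73. With total UMIs the share of calls that were higher went from 46.4% to 36.0% in oligodendrocyte-like cells, from 42.0% to 23.5% in astrocyte-like cells, from 39.8% to 23.2% in the cluster led by Tshz3, from 48.9% to 34.8% by mt- share and from 51.8% to 81.4% by depth. Malat1 in oligodendrocyte-like cells turned to -0.0274 with DESeq2 and with its size factors, -0.16 with total UMIs and -0.18 without the filter on low counts, and in astrocyte-like cells to -0.39 without that filter. The astrocyte-like value of Malat1 passed with at most 20% mt- UMIs (0.62), without Scrublet-called cells (0.67) and without placebo mouse 5 (0.66).

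Members called in GABAergic-like cells went from 3 to 1 with limma and without both copies of shared barcodes. In the CA1-named clusters against the other glutamatergic-like cells 1 member was called without the filter, 1 without mt- genes, 4 with mt- genes kept out of the variable genes and 2 without integration. In these last 2 settings Malat1 turned to -0.62 and -0.047 and Miat to -0.52 and -0.17, lower in the CA1-named clusters. By mt- share and by depth 0 members were called in oligodendrocyte-like cells. Treatment values, none of which passed, turned for Malat1 in all cells (0.20 with D number as a block), in glutamatergic-like cells for Meg3 (0.21), Malat1 (0.17) and Miat (0.0611) with that block, Rian with limma (-0.0318), and Snhg11 (-0.0158) and Rian (-0.11) with at most 20% mt- UMIs, and in oligodendrocyte-like cells for Meg3 (0.18, 0.49, 0.0346) and Snhg11 (0.39, 0.17, 0.15) with limma, the block and without both copies.

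Genes called, against those reported, were 5680 (oligodendrocyte-like), 1285 (GABAergic-like), 3922 (astrocyte-like) and 4580 (endothelial-like) without the filter, which tests more genes. They were 373 (GABAergic-like), 800 (Tshz3), 1716 (mt- share) and 730 (depth) with limma, 396 (CA1) and 1094 (Tshz3) with DESeq2, 523 (GABAergic-like) and 1019 (Tshz3) without both copies, 1166 (CA1) without integration, 947 (Tshz3) with at most 20% mt- UMIs, 1826 and 333 in splits of mt- share within depth and of depth within mt- share, and 7 and 27 in oligodendrocyte-like cells. For EPO they were 1 with DESeq2 and 1 with the block, and 52, 11 and 2 without the filter in all, glutamatergic-like and oligodendrocyte-like cells. The causes were not tested.

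With 1 mouse left out in turn, genes called were 515 to 782 (GABAergic-like, lowest without EPO mouse 4), 787 to 2310 (astrocyte-like, highest without placebo mouse 3), 264 to 732 (CA1, lowest without EPO mouse 4), 950 to 1579 (Tshz3, lowest without EPO mouse 4) and 0 to 7 (EPO in glutamatergic-like cells, highest without placebo mouse 5), and members called in the CA1-named clusters 0 to 2 (highest without EPO mouse 6). Malat1 ranged from -0.0492 to 0.17 in oligodendrocyte-like cells and from -0.17 to 0.24 in the CA1-named clusters. Treatment values ranged from -0.26 to 0.16 (Malat1) and -0.0128 to 0.16 (Miat) in all cells, from -0.42 to 0.17 (Meg3), -0.42 to 0.0934 (Malat1), -0.17 to 0.21 (Snhg11), -0.30 to 0.38 (Rian) and -0.38 to 0.0789 (Miat) in glutamatergic-like cells, and from -0.59 to 0.37 (Meg3), -0.62 to 1.11 (Snhg11) and -0.25 to 0.0291 (Malat1) in oligodendrocyte-like cells.

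Counts set the limits: Rian, Miat and Sox2ot gave 1736, 1800 and 757 UMIs in all, and placebo mouse 3 had 43 cells. The meaning of the D numbers is not known.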
